A study of Mus musculus with 24 samples.

Results

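A group of 70 mouse genes stood higher under gamma-secretase inhibition when leukaemia cells carried either ICN1 or R1984A, and to nearly the same extent with each. They were chosen by their values, as the genes whose mean log2 expression value in ICN1-GSI and in R1984A-GSI exceeded that in MigR1-GSI by at least 0.5, with less than 0.3 between ICN1-GSI and R1984A-GSI and a mean of at least 5 in at least 1 of the 8 groups. They are 70 of 19938 genes measured, and 70 of the 8135 that reached the level of 5. The cells were T6E, a Notch1-dependent leukaemia line of mouse T-lineage cells, and every sample was a total RNA extract hybridised to an Affymetrix array. MigR1 is a retroviral vector used empty as the control, DNMAML is a dominant negative Mastermind-like protein, ICN1 is the intracellular part of Notch1, and R1984A is an ICN1 that the labels describe as dimerization defective. Each construct was combined with 6 hours of either the solvent DMSO or 1 uM of the gamma-secretase inhibitor (GSI) compound E, with 3 arrays in each of the 8 groups, named here MigR1-DMSO, MigR1-GSI and so on. All groups share the T6E background with its own Notch1 signal. No source used here says whether the cells carrying a construct were sorted or whether a line was 1 clone.

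Notch receptors are cleaved by gamma-secretase after they bind a ligand, and the released intracellular part enters the nucleus. There it binds the DNA-binding protein RBPJ and a Mastermind coactivator, and the complex raises transcription of nearby genes. On some promoters a pair of such complexes dimerizes on binding sites placed head to head, and on others a complex acts alone. In T-lineage cells Notch1 drives early thymocyte growth, and its mutation is a common lesion of T-cell leukaemia. ICN1 and R1984A need no cleavage, so that GSI blocks the cells' own receptor but not the constructs, and DNMAML blocks the step at Mastermind.

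The promoter stretches of 4 members are printed because these genes rose with R1984A in DMSO, a comparison that took no part in choosing them by difference, and hold the core letters of the RBPJ binding sequence within 250 bases before their start. They are Irf9, Pkp4, Zfp605 and Odf3l1, from RefSeq on GRCm38.p6, and the capitals mark TGGGAA or its reverse complement TTCCCA. The Irf9 stretch lies at chr14:55603782-55603906 on the plus strand, that of Pkp4 at chr2:59161687-59161732 on the plus strand, that of Zfp605 at chr5:110110048-110110091 on the plus strand and that of Odf3l1 at chr9:56852172-56852213 on the minus strand.
Irf9: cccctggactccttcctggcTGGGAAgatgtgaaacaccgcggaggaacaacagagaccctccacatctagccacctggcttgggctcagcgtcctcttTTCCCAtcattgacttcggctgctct
Pkp4: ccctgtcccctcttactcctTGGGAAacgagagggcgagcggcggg
Zfp605: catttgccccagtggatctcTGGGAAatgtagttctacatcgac
Odf3l1: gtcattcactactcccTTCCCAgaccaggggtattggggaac

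Of the 70 members 41 matched a promoter entry, with 55 windows of 250 bases before a start. The letters TGGGAA, on either strand, were in 13 of the 55 windows (23.6%) and in 21.6% of the 32851 windows of all genes. By gene, 12 of 41 members (29.3%) and 24.1% of 27025 genes had them in at least 1 window. The head-to-head arrangement TGNGAA, 15 to 17 bases, TTCNCA was in 0 of the 55 windows and in 0.116% of all windows. The windows of Nrarp, Dtx1, Notch1, Notch3 and Il2ra matched and did not hold TGGGAA, which says only that these letters are not in that window. A match is a description of the sequence and shows no binding.

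Array medians lay between 3.90 and 4.18, and the Pearson correlation between arrays within a group, over genes that are not independent, was 0.982 to 0.994. The replicate 3 array had the highest median of its group in 8 of 8 groups. Of 28 measured T-lineage genes 16 were at 5 or more in every group, among them Cd3e, a chain of the T-cell receptor complex, with group means of 10.30 to 10.57. None of 13 myeloid markers reached 5, 1 of 9 B-cell markers did (Vpreb1), 1 of 7 erythroid and megakaryocyte markers did (Tfrc), 3 of 10 natural killer markers did and 5 of 14 stromal markers did. As a check of the labels, the group means of Notch1 ran from 5.66 in MigR1-GSI to 7.32 in ICN1-GSI, those of Maml1 from 4.33 to 4.67 and those of Rbpj from 7.48 to 8.10. Whether the Notch1 and Maml1 probe sets read the constructs was not tested. Each array reads the RNA of a whole culture, so that a change in every cell and a change in the share of cells cannot be told apart.

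The values that chose the genes are given here as a description. The rise with ICN1 under GSI ran from 0.51 to 2.28 with a median of 0.77, and the rise with R1984A from 0.504 to 2.03 with a median of 0.79. ICN1-GSI was the higher of the pair for 33 members and R1984A-GSI for 37. Of the 8135 genes at the level, 321 rose by at least 0.5 with ICN1, 276 with R1984A and 140 with both. Among these 140 genes 35 were higher by 0.3 or more with ICN1 and 35 with R1984A, and the remaining 70 are the members. Small RNAs aside, the 2 members just inside the limit of the rise were Vps26a, at 0.51 with ICN1, and Rep15, at 0.51 with R1984A, and just outside stood Capg, at 0.4965 with ICN1, and Nol8, at 0.49 with R1984A. At the limit of the difference between the constructs, Dusp1 (0.299) and Pkp4 (0.298) were inside, and Agfg1 (0.305) and Pex11a (0.306) outside. At the limit of the level, Zfp850 (5.02) and Srgn (5.20) were inside, and Gdap10 (4.96) and Kalrn (4.93) outside.

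**Figure D1:**
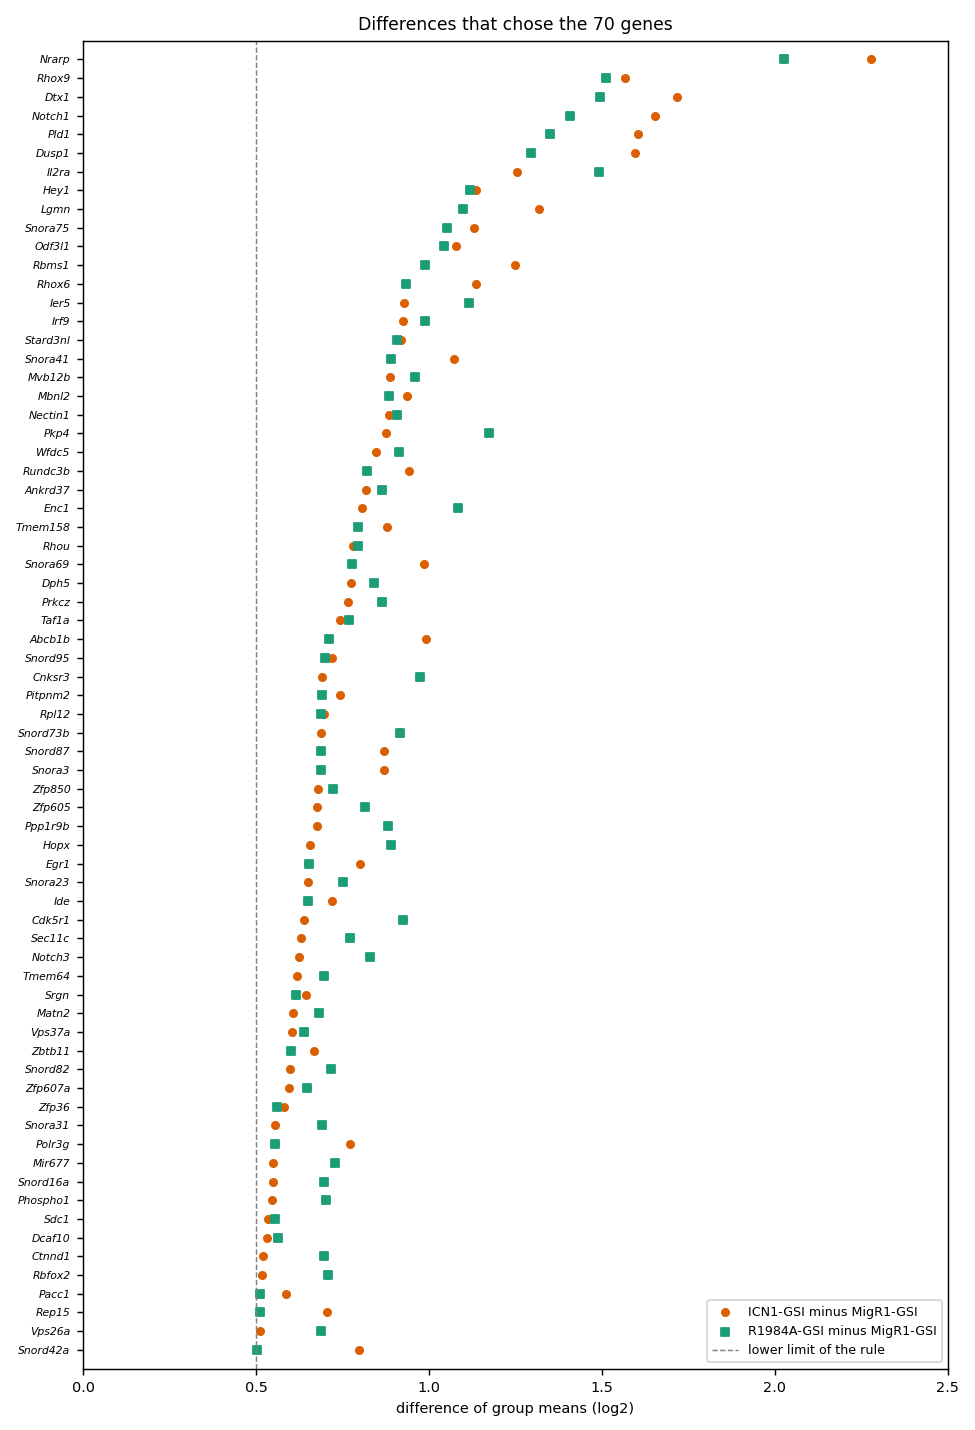
Differences of group means on the log2 scale (horizontal axis) for each of the 70 members (vertical axis, ordered by the smaller difference), with circles for ICN1-GSI minus MigR1-GSI, squares for R1984A-GSI minus MigR1-GSI and a dashed line at the limit of 0.5. Nrarp lies farthest right, at 2.28 and 2.03, and most members lie between 0.5 and 1.

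Of the members 57 are protein-coding, 12 are small nucleolar RNAs and 1 is a microRNA gene, Mir677. One of the 12, Snord73b, has the RefSeq class snRNA. The class snoRNA made up 15.7% of the members and 0.418% of the genes at the level. Every MigR1-GSI array enters both rises, and the replicate 3 array of that group was the lowest of its group for 34 members and at least 0.5 below each of the others for 12. Without it the rule gave 61 genes, 56 of them members, and 14 members were lost, Abcb1b, Zfp36, Sdc1, Matn2 and Snord42a among them. In each of the 9 lists with 1 array of the GSI groups left out 26 members were found, including Nrarp, Notch1, Hey1, Notch3, Ier5, Irf9, Ide and Nectin1.

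MigR1-GSI, the common baseline of both rises, was itself below MigR1-DMSO for 65 members and above it for 5, with a median difference of -0.36 against 0.0047 over all genes. With the constructs present the median over the members was -0.03 for ICN1-GSI minus ICN1-DMSO and -0.03 for R1984A-GSI minus R1984A-DMSO. The second median covers a split, since 38 of 57 protein-coding members were below 0 (median -0.07) and all 12 small nucleolar members above it (median 0.31, up to 0.71), as were 17 of 23 other snoRNAs at the level. These differences share arrays with the rule and have no test. The DMSO groups of ICN1, R1984A, DNMAML and MigR1 took no part in the differences of the rule, and the tests that follow compare them. Only the level part of the rule could draw on them, and 67 of the 70 members reached 5 in the 3 GSI groups of the rule, with Wfdc5, Srgn and Snord42a as the exceptions. Wfdc5 and Srgn reached it only in R1984A-DMSO and Snord42a only in MigR1-DMSO and ICN1-DMSO, so the counts of calls are given over the other 67 members and the DMSO values of these 3 as a description.

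In DMSO, where the cells' own Notch1 signal was on, ICN1 and R1984A still raised a share of the members. A gene is called here when its adjusted p in a limma fit over 19938 genes is under 0.05. ICN1-DMSO exceeded MigR1-DMSO for 15 of 67 members and was lower for 0, where 0.421% of all genes and 0.971% of the 8135 genes at the level were called higher. R1984A-DMSO exceeded MigR1-DMSO for 25 of 67 and was lower for 0, where 0.868% of all genes and 1.92% of those at the level were called higher. All these calls were of protein-coding members. The median difference of the 67 was 0.45 with ICN1 and 0.50 with R1984A, against -0.0027 and -0.0086 over all genes. The comparisons share the MigR1-DMSO arrays.

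The number called with ICN1 moved with the fit. It was 27 with the replicate number as a block, the fit that takes up the shared deviation of samples with the same number, and 6 without the replicate 3 arrays. It was 8 when ICN1-DMSO replicate 3 was left out, and 9, 8 and 9 when replicate 1, 2 or 3 of MigR1-DMSO was. With R1984A it was 30 with the block, 16 without the replicate 3 arrays and 15 when only the 2 groups compared were fitted. The lower counts were 0 in each of these fits.

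Some markers of other cell types moved in the same comparisons. Of 10 natural killer markers, Prf1 (perforin) rose with ICN1 by 1.07 (adjusted p = 0.00060) and with R1984A by 0.78 (adjusted p = 0.012), and Id2 rose with R1984A by 0.82 (adjusted p = 0.0016). With DNMAML Prf1 fell by 0.73 (adjusted p = 0.015) and Gzma rose by 0.43 (adjusted p = 0.039). The summed log2 level of that list ran from 43.8 to 44.0 over the MigR1-DMSO arrays, from 45.1 to 45.8 with ICN1, from 44.95 to 46.03 with R1984A and from 43.1 to 44.8 with DNMAML. Of 14 stromal and epithelial markers, Pdgfrb rose with ICN1 by 1.08 (adjusted p = 0.00033) and with R1984A by 1.92 (adjusted p = 1.1e-07) and fell by 0.63 with DNMAML (adjusted p = 0.034). Cdh1 rose with ICN1 by 0.73 (adjusted p = 0.0082) and fell by 0.68 with DNMAML (adjusted p = 0.0079). Pecam1 fell by 0.76 with ICN1 (adjusted p = 0.047) and rose by 1.04 with DNMAML (adjusted p = 0.0019). Pdgfrb and Pecam1 also differed between the constructs, at -0.84 and -0.82 for ICN1 minus R1984A (adjusted p = 0.0046 and 0.021). The summed level of that list was 64.9 to 65.9 in MigR1-DMSO, 65.3 to 67.5 in ICN1-DMSO, 66.9 to 67.7 in R1984A-DMSO and 64.7 to 67.1 in DNMAML-DMSO. None of the B-cell, myeloid, or erythroid and megakaryocyte markers was called in these comparisons, and the part of any other cell type in the members' differences was not tested.

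**Figure D2:**
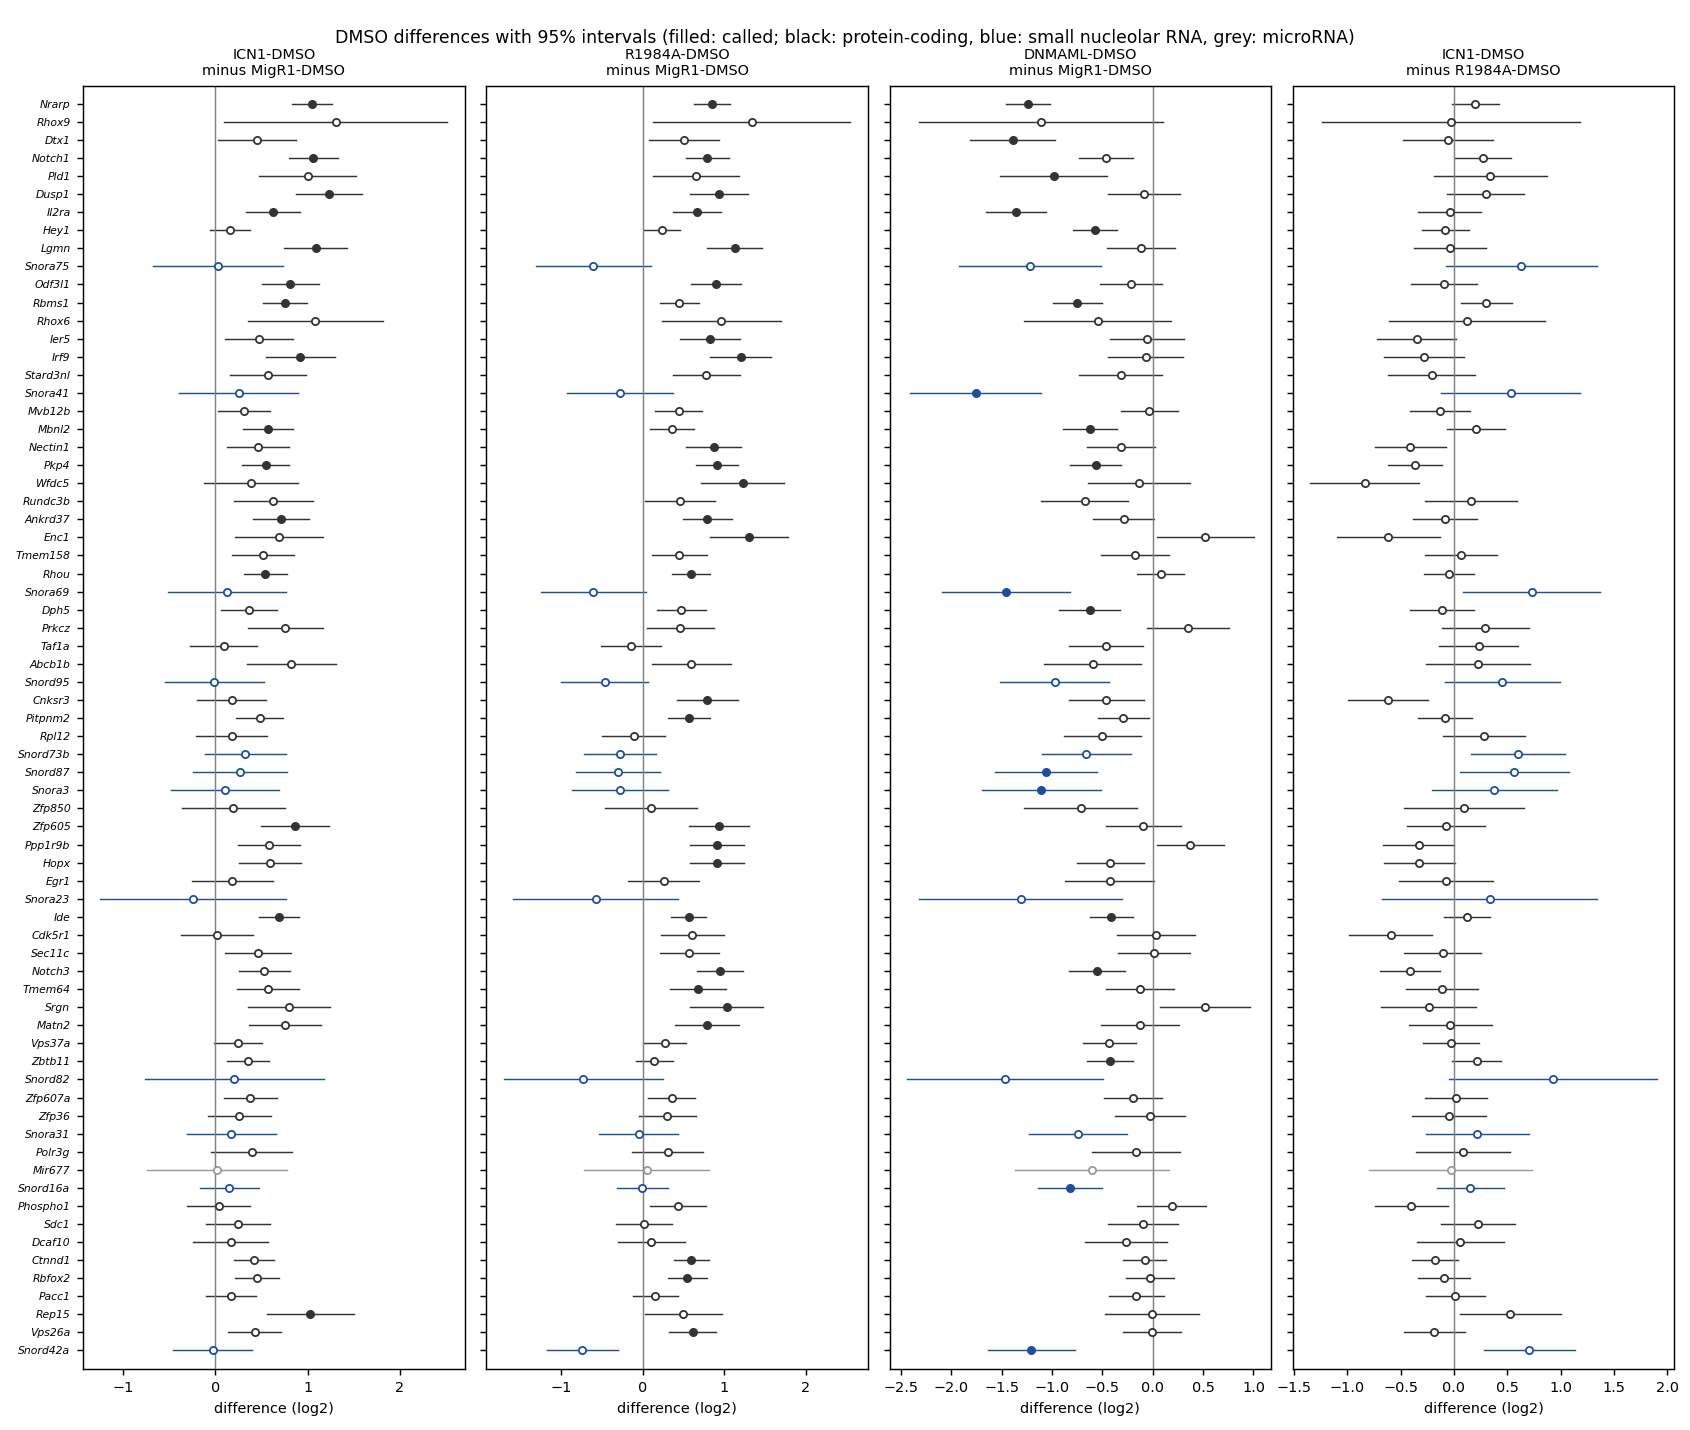
Differences of group means on the log2 scale (horizontal axes) with 95% intervals for each member (vertical axis), in panels for ICN1-DMSO, R1984A-DMSO and DNMAML-DMSO, each minus MigR1-DMSO, and for ICN1-DMSO minus R1984A-DMSO. Filled points were called, black for protein-coding members, blue for small nucleolar RNAs and grey for the microRNA; 15, 27, 18 and 0 points are filled, Wfdc5 and Srgn with R1984A and Snord42a with DNMAML among them.

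The 6 members on the list of Notch targets were Nrarp, Dtx1, Notch1, Notch3, Hey1 and Il2ra. Nrarp, a feedback inhibitor that acts on the Notch complex, had the largest rise of all members under GSI. Its log2 values were 4.0, 4.10 and 4.17 in MigR1-GSI, 6.33, 6.35 and 6.43 in ICN1-GSI, and 5.98, 6.18 and 6.20 in R1984A-GSI. In DMSO they were 5.12, 5.41 and 5.38 with MigR1, 6.21, 6.53 and 6.32 with ICN1, and 6.04, 6.18 and 6.24 with R1984A. In DMSO every array with ICN1 or R1984A lay above every MigR1 array, and under GSI the rule had chosen for such a gap. The difference in DMSO was 1.05 (SE 0.11, adjusted p = 2.8e-06) with ICN1 and 0.85 (SE 0.11, adjusted p = 7.0e-05) with R1984A. In MigR1-GSI Nrarp read close to the array medians.

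Notch1, the receptor gene itself, read 6.22, 6.28 and 6.17 in MigR1-DMSO, 7.28, 7.12 and 7.46 in ICN1-DMSO, and 6.93, 7.08 and 7.04 in R1984A-DMSO. The groups with ICN1 or R1984A lay above MigR1-DMSO without overlap, with differences of 1.06 (SE 0.13, adjusted p = 3.4e-05) and 0.79 (SE 0.13, adjusted p = 0.0010). Its rises under GSI were 1.65 with ICN1 and 1.41 with R1984A. Both constructs are forms of Notch1, and whether this probe set read them was not tested, so these rises may not be of the cells' own gene. The paralogous receptor gene Notch3 read 6.11, 6.25 and 5.81 in MigR1-DMSO, 6.68, 6.36 and 6.73 in ICN1-DMSO, and 7.05, 6.92 and 7.03 in R1984A-DMSO. All these arrays with ICN1 or R1984A lay above those with the empty vector. The difference was called with R1984A (0.94, SE 0.14, adjusted p = 0.00030) and was 0.53 with ICN1 (SE 0.14, adjusted p = 0.078; 0.042 with the replicate block).

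Il2ra encodes a chain of the receptor for interleukin-2 (CD25) and Hey1 a transcriptional repressor of the Hes family. Both make up the whole of a list of targets taken to be independent of dimerization. Il2ra read 7.43, 7.46 and 7.31 in MigR1-DMSO, 7.86, 8.02 and 8.18 in ICN1-DMSO, and 8.08, 8.11 and 8.0 in R1984A-DMSO, without overlap with the vector. Its differences were 0.62 (SE 0.14, adjusted p = 0.037) and 0.66 (SE 0.14, adjusted p = 0.017). Leaving out 1 array ended the call in 5 of 6 fits with ICN1 (adjusted p up to 0.26) and in 4 of 6 with R1984A (up to 0.11). Hey1 read 9.89, 9.79 and 9.69 in MigR1-DMSO, 9.94, 9.98 and 9.91 in ICN1-DMSO, and 10.06, 10.01 and 10.02 in R1984A-DMSO, and each construct group lay above the vector. Its differences of 0.16 and 0.24 were not called (adjusted p = 0.98 and 0.65). Under GSI, where the rule chose for such a gap, MigR1 stood at 8.88, 8.90 and 8.59, below all 6 arrays with ICN1 or R1984A. Dtx1, a ubiquitin ligase of the pathway, had rises of 1.72 and 1.496 under GSI and differences of 0.45 and 0.51 in DMSO, neither called (adjusted p = 0.75 and 0.54).

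**Figure D3:**
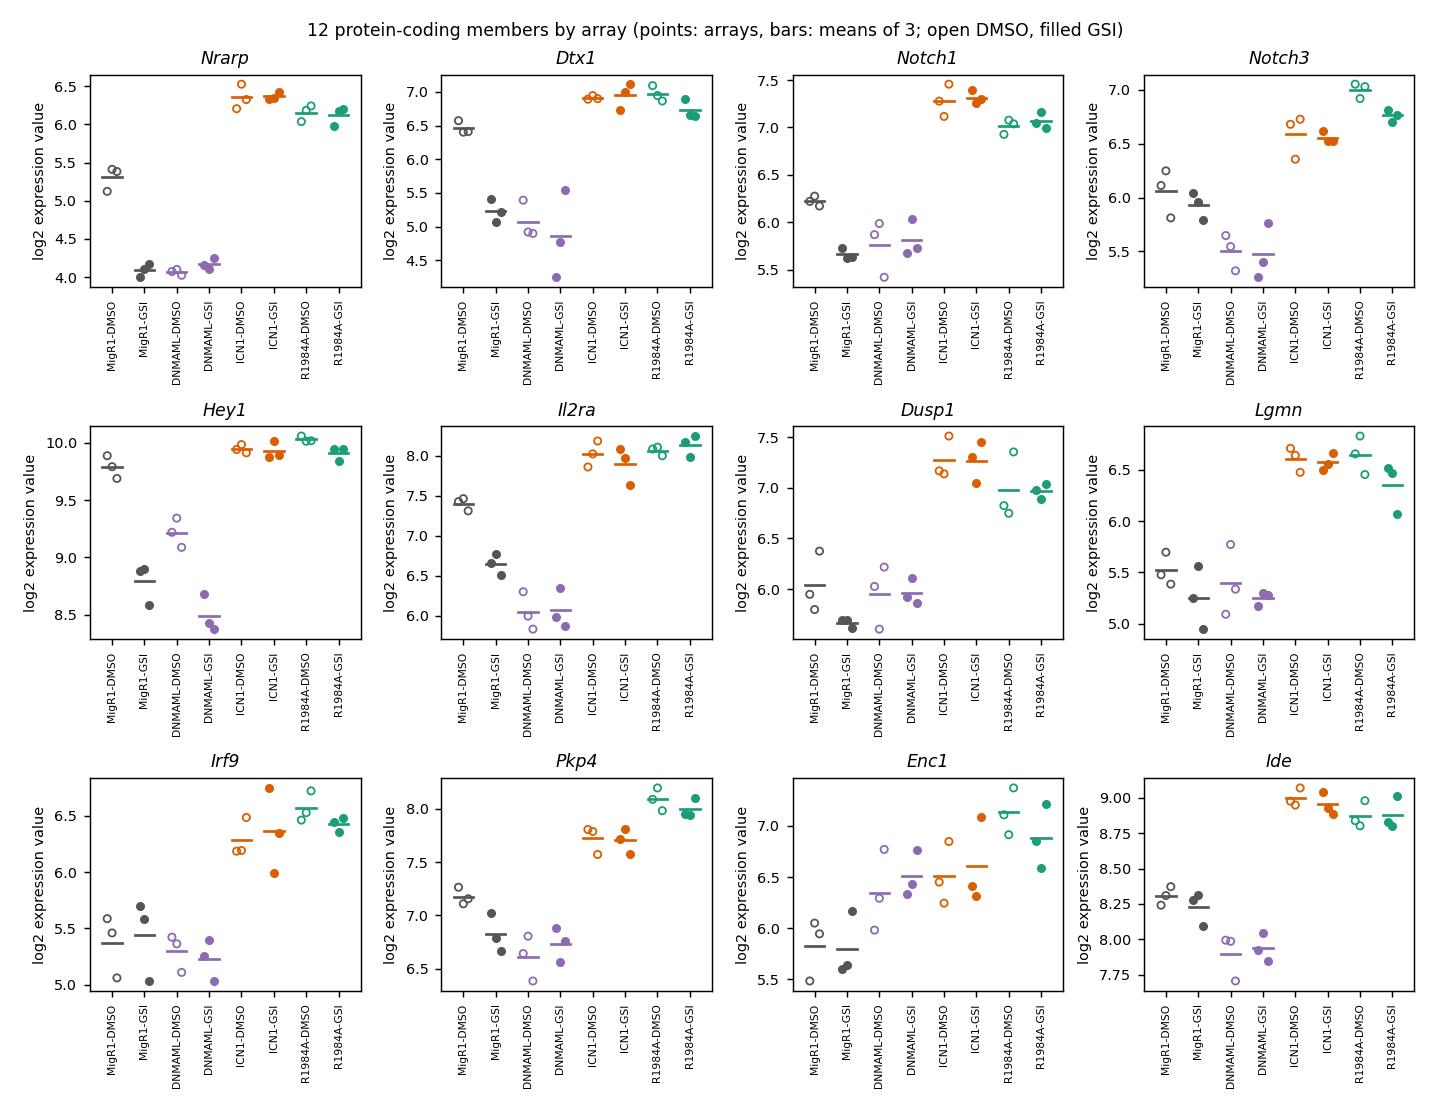
Log2 expression values (vertical axes) of 12 protein-coding members in the 8 groups (horizontal axes), with a point per array, open for DMSO and filled for GSI, and a bar at each mean of 3. In the Hey1 panel MigR1-DMSO lies near the groups with ICN1 or R1984A and MigR1-GSI lies about 1 below it, while in the Irf9 and Enc1 panels MigR1-DMSO and MigR1-GSI lie together.

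Dusp1, Ier5, Egr1 and Zfp36 are immediate-early genes, which respond quickly to many signals. Dusp1, a phosphatase that inactivates MAP kinases, read 5.95, 5.80 and 6.38 in MigR1-DMSO, 7.17, 7.14 and 7.51 in ICN1-DMSO, and 6.82, 6.75 and 7.35 in R1984A-DMSO. Both groups with a construct lay above the vector, and the differences were 1.23 (SE 0.17, adjusted p = 0.00023) and 0.93 (SE 0.17, adjusted p = 0.0039). Ier5, which takes part in the heat-shock response, read 4.94, 5.07 and 4.44 in MigR1-DMSO and 5.48, 5.64 and 5.80 in R1984A-DMSO, and rose by 0.82 (SE 0.18, adjusted p = 0.018) with R1984A, a call that ended in 3 of 6 fits with 1 array left out (up to 0.20). With ICN1 its difference was 0.47 (adjusted p = 0.51). Egr1, a zinc-finger transcription factor, was at 0.18 and 0.26, and Zfp36, which destabilises AU-rich mRNAs, at 0.26 and 0.31, with no call. With DNMAML none of the 4 was called, with differences from -0.43 to -0.03.

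Irf9, the DNA-binding part of the interferon-stimulated gene factor, was among the members farthest from the vector in DMSO. It read 5.59, 5.46 and 5.06 in MigR1-DMSO, 6.19, 6.19 and 6.49 in ICN1-DMSO, and 6.46, 6.53 and 6.72 in R1984A-DMSO. Both groups with a construct lay above the vector. It rose by 0.92 with ICN1 (SE 0.18, adjusted p = 0.010; lost in 2 of 6 fits, up to 0.10) and by 1.20 with R1984A (SE 0.18, adjusted p = 0.00047). MigR1-GSI minus MigR1-DMSO was 0.07, which shares arrays with the rule, and DNMAML-DMSO minus MigR1-DMSO was -0.07. The mean was 5.23 in DNMAML-GSI and 5.37 in MigR1-DMSO. Irf9 thus stood near its MigR1-DMSO level in MigR1-GSI, DNMAML-DMSO and DNMAML-GSI, where the cells' own signal was blocked.

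Lgmn, Ide and Sec11c encode peptidases and Wfdc5 a peptidase inhibitor. Lgmn, the lysosomal asparaginyl endopeptidase, read 5.48, 5.70 and 5.39 in MigR1-DMSO, 6.71, 6.64 and 6.48 in ICN1-DMSO, and 6.66, 6.83 and 6.45 in R1984A-DMSO. It rose without overlap with the vector by 1.09 (SE 0.16, adjusted p = 0.00059) and 1.13 (SE 0.16, adjusted p = 0.00035). Ide, the insulin-degrading enzyme, read 8.24, 8.31 and 8.37 in MigR1-DMSO, 8.98, 8.95 and 9.07 in ICN1-DMSO, and 8.84, 8.80 and 8.98 in R1984A-DMSO, with rises of 0.69 (SE 0.10, adjusted p = 0.00060) and 0.56 (SE 0.10, adjusted p = 0.0040). Wfdc5, which reached the level of 5 only in R1984A-DMSO and so had to be high there, read 4.26, 4.40 and 4.27 in MigR1-DMSO, 4.51, 4.57 and 5.02 in ICN1-DMSO, and 5.20, 5.52 and 5.89 in R1984A-DMSO. Sec11c, a subunit of the signal peptidase, was at 0.47 and 0.57 (adjusted p = 0.50 and 0.19; 0.14 and 0.035 with the replicate block) and was not called.

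Of 6 members grouped here under adhesion and matrix, Pkp4 was called with ICN1, and Pkp4, Nectin1, Ctnnd1 and Matn2 with R1984A, where 0.421% and 0.868% of all genes were called higher. Of the 8135 genes at the level 0.971% and 1.92% were called higher. None of the 6 was called between the constructs. Pkp4, a plakophilin of cell junctions, read 7.26, 7.11 and 7.16 in MigR1-DMSO, 7.81, 7.79 and 7.57 in ICN1-DMSO, and 8.09, 8.20 and 7.98 in R1984A-DMSO, so that neither group overlapped the vector. Its differences were 0.55 (SE 0.12, adjusted p = 0.033; lost in 5 of 6 fits, up to 0.18) and 0.91 (SE 0.12, adjusted p = 0.00017). Nectin1, an immunoglobulin-like adhesion molecule, read 6.62, 6.58 and 6.46 in MigR1-DMSO and 7.58, 7.51 and 7.18 in R1984A-DMSO, and rose by 0.87 (SE 0.16, adjusted p = 0.0042). Ctnnd1, the p120 catenin, rose by 0.60 with R1984A (adjusted p = 0.0020). The matrix protein Matn2 rose with R1984A by 0.79 (adjusted p = 0.040; lost in 4 of 6, up to 0.40). With ICN1 these 3 were at 0.46, 0.42 and 0.76 without a call, and with the replicate block Ctnnd1 and Matn2 were called (adjusted p = 0.031 and 0.018). Srgn, a granule proteoglycan that reached the level only in R1984A-DMSO, read 5.51, 4.69 and 5.38 there and 4.31, 4.31 and 3.88 in MigR1-DMSO. Sdc1, the proteoglycan syndecan-1, was at 0.24 and 0.02.

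The homeobox members were Rhox9, Rhox6 and Hopx. Rhox9 and Rhox6 belong to the reproductive homeobox cluster on the X chromosome and lie close in sequence, so that their probe sets may share signal. Rhox9 read 8.11, 7.42 and 6.65 in MigR1-DMSO, 9.05, 8.24 and 8.81 in ICN1-DMSO, and 9.07, 8.32 and 8.79 in R1984A-DMSO. The vector's arrays spread over more than 1 log2 unit, and the differences of 1.31 and 1.34 (SE 0.58 each) were not called (adjusted p = 0.73 and 0.64). Rhox6 was at 1.08 (adjusted p = 0.31) and 0.97 (adjusted p = 0.43), and with the replicate block it was called with both constructs (adjusted p = 0.0030 and 0.0071). Hopx, a homeodomain protein that does not bind DNA, rose by 0.91 with R1984A (SE 0.16, adjusted p = 0.0026) and was at 0.59 with ICN1 (adjusted p = 0.13).

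Among 7 members of signalling and the cytoskeleton, Rhou, a small GTPase, rose with ICN1 by 0.54 (adjusted p = 0.018; lost in 4 of 6 fits, up to 0.18) and with R1984A by 0.59 (adjusted p = 0.0056). Ppp1r9b, the scaffold spinophilin, rose with R1984A by 0.91 (SE 0.16, adjusted p = 0.0025), Cnksr3 by 0.80 (adjusted p = 0.029; lost in 4 of 6, up to 0.28) and Pitpnm2, a phosphatidylinositol transfer protein, by 0.57 (adjusted p = 0.018; lost in 4 of 6, up to 0.10). With ICN1 these were at 0.58, 0.17 and 0.48, not called, and with the replicate block Ppp1r9b and Pitpnm2 were (adjusted p = 0.019 and 0.026). Pld1, phospholipase D1, read 5.33, 5.63 and 6.09 in MigR1-DMSO, 6.40, 6.89 and 6.76 in ICN1-DMSO, and 6.12, 6.37 and 6.54 in R1984A-DMSO. Its difference of 1.0 with ICN1 missed the threshold (adjusted p = 0.078) and passed it with the replicate block (0.0041), and with R1984A it was 0.66 (adjusted p = 0.50). Prkcz, an atypical protein kinase C, was at 0.76 and 0.46, and Cdk5r1, an activator of Cdk5, at 0.02 and 0.61, with no call. With the replicate block Prkcz was called with ICN1 (adjusted p = 0.031) and Cdk5r1 with R1984A (0.019). A further probe set of Prkcz gave rises of 0.02 and 0.23 under GSI, unlike the 0.77 and 0.86 of the one used.

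The RNA-binding members were Rbms1, Mbnl2 and Rbfox2. Rbms1 read 6.69, 6.64 and 6.36 in MigR1-DMSO, 7.21, 7.36 and 7.37 in ICN1-DMSO, and 7.07, 7.03 and 6.94 in R1984A-DMSO. It rose with ICN1 by 0.75 (SE 0.12, adjusted p = 0.00071) and was at 0.45 with R1984A (adjusted p = 0.065; 0.032 with the replicate block). The splicing regulator Mbnl2 rose with ICN1 by 0.57 (adjusted p = 0.037; lost in 6 of 6 fits, up to 0.17) and was at 0.36 with R1984A. The splicing regulator Rbfox2 rose with R1984A by 0.55 (adjusted p = 0.014; lost in 3 of 6, up to 0.15) and was at 0.45 with ICN1 (adjusted p = 0.076; 0.030 with the replicate block).

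Of the 4 zinc-finger members, Zfp605 read 4.76, 5.15 and 4.47 in MigR1-DMSO, 5.52, 5.77 and 5.68 in ICN1-DMSO, and 5.52, 5.65 and 6.02 in R1984A-DMSO. It rose without overlap with the vector by 0.86 (adjusted p = 0.016; lost in 4 of 6 fits, up to 0.15) and 0.94 (adjusted p = 0.0050; lost in 2 of 6, up to 0.063). Zfp607a, Zfp850 and Zbtb11 were at 0.20 to 0.38 with ICN1 and 0.10 to 0.36 with R1984A and were not called. Odf3l1, a relative of a sperm outer dense fiber protein, read 5.15, 4.64 and 4.64 in MigR1-DMSO, 5.55, 5.86 and 5.46 in ICN1-DMSO, and 5.79, 5.73 and 5.63 in R1984A-DMSO. It rose without overlap with the vector by 0.81 (adjusted p = 0.0050; lost in 2 of 6, up to 0.056) and 0.90 (adjusted p = 0.0012). Ankrd37, an ankyrin-repeat protein, rose by 0.71 (adjusted p = 0.014; lost in 3 of 6, up to 0.12) and 0.79 (adjusted p = 0.0037). Enc1, a Kelch-like actin-binding protein, read 5.49, 6.05 and 5.95 in MigR1-DMSO, 6.45, 6.25 and 6.85 in ICN1-DMSO, and 7.11, 6.91 and 7.37 in R1984A-DMSO. It rose with R1984A by 1.30 (SE 0.23, adjusted p = 0.0027), the largest called difference of a member there, and was at 0.69 with ICN1 (adjusted p = 0.36; 0.0059 with the replicate block).

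Of 5 genes of membrane traffic, ICN1 raised the Rab15 effector gene Rep15 by 1.03 (adjusted p = 0.027; lost in 5 of 6 fits, up to 0.20) and R1984A raised the retromer subunit gene Vps26a by 0.61 (adjusted p = 0.027; lost in 5 of 6, up to 0.19). Vps37a, Mvb12b and Stard3nl were not called, at 0.25 to 0.57 with ICN1 and 0.27 to 0.78 with R1984A. With the replicate block Vps26a was called with ICN1 (0.43, adjusted p = 0.037) and Stard3nl, a late endosomal protein, with R1984A (0.78, adjusted p = 0.0094). Tmem64, a membrane protein, rose with R1984A by 0.68 (adjusted p = 0.043; lost in 5 of 6, up to 0.29). Rundc3b was at 0.63 with ICN1 (adjusted p = 0.33; 0.035 with the replicate block) and 0.46 with R1984A. Tmem158, Phospho1 and Dcaf10 were not called with either construct, nor were the transporter Abcb1b (0.82 and 0.60), the chloride channel Pacc1, the diphthamide enzyme Dph5 or Polr3g, a subunit of RNA polymerase III. The differences of Taf1a, a factor of RNA polymerase I initiation, were 0.09 with ICN1 and -0.14 with R1984A. Those of the ribosomal protein gene Rpl12 were 0.18 and -0.11. Its probe set read low, with group means of 4.57 to 5.70. The ribosomal protein genes Rps3a1, Rpl27a, Rpl23a and Rpl4 had means of 10.16 to 11.65. Whether the Rpl12 probe set reads the mature mRNA was not tested. Taf1a and Rpl12 were the only protein-coding members of which R1984A-DMSO was below MigR1-DMSO.

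Set against each other in DMSO, ICN1 and R1984A differed in 0 of the 67 members by the limma fit. Over all genes 0.963% were called in either direction. At an unadjusted p under 0.05 in that fit there were 13 of the 67, 6 higher with ICN1 and 7 higher with R1984A. Of the 8135 genes at the level there were 1007, 343 higher with ICN1 and 664 higher with R1984A. The 95% interval of the difference lay within 0.5 of 0 on either side for 28 of the 67. For the others a difference of that size is within the interval. Of the 67 differences 45 were below 0.3 in size, the limit the rule had set in GSI. Of the 8135 genes at the level, the interval lay within 0.5 for 5016 and the difference was below 0.3 for 6973. Both shares were larger than among the members. With the replicate block 2 of the 67 were called, both higher with R1984A: Enc1 at -0.62 for ICN1 minus R1984A (adjusted p = 0.40; 0.012 with the block) and Cdk5r1 at -0.59 (0.21; 0.022). Leaving out R1984A-DMSO replicate 2 gave 1 call, higher with ICN1, and leaving out the replicate 3 arrays gave 1 of the 67, higher with R1984A. Notch3 at -0.41 (95% interval -0.69 to -0.13) and Cnksr3 at -0.62 (-1.0 to -0.25) were further members with an unadjusted p under 0.05 on the R1984A side. On the ICN1 side were Notch1 at 0.27 (0.01 to 0.53), Rbms1 at 0.30 (0.06 to 0.54), Rep15 at 0.53 (0.06 to 1.0) and 4 small nucleolar RNAs. The 4 include Snord42a, which reached the level only in MigR1-DMSO and ICN1-DMSO and is not in the count above.

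DNMAML in DMSO lowered 17 of 67 members and raised 0 against MigR1-DMSO, where 0.833% of all genes were called lower, 1.1% higher and 1.94% either way. Of the 8135 genes at the level 1.94% were called lower and 2.48% higher. Of the 67 members 60 were below 0, with a median of -0.42 against -0.0042 over all genes. The 17 were 12 protein-coding genes and 5 small nucleolar RNAs. The count was 8 when MigR1-DMSO replicate 2 was left out, 10 when its replicate 3 was and 11 when DNMAML-DMSO replicate 1 was. It was 16 without the replicate 3 arrays. With the replicate block it was 25, and Enc1, at 0.52, was called higher (adjusted p = 0.41; 0.024 with the block).

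Among the protein-coding members called, the Notch targets Dtx1, Il2ra and Nrarp fell most, while Hey1 and Notch3 fell less than some other members. Dtx1 read 6.57, 6.40 and 6.41 in MigR1-DMSO and 5.39, 4.92 and 4.90 in DNMAML-DMSO, and fell by 1.39 (SE 0.21, adjusted p = 0.00037). Il2ra went from those MigR1-DMSO values to 6.30, 6.0 and 5.83 and fell by 1.36 (SE 0.14, adjusted p = 9.2e-06). Nrarp, at 4.07, 4.10 and 4.02, fell by 1.24 (SE 0.11, adjusted p = 5.0e-07). None of the 3 overlapped the vector, and Nrarp ended close to the array medians. Hey1 read 9.22, 9.34 and 9.09 and fell by 0.57 (SE 0.11, adjusted p = 0.0035), and Notch3 fell by 0.55 (SE 0.14, adjusted p = 0.032), a call lost in 4 of 6 fits (up to 0.20). Notch1 was at -0.46 (SE 0.13, adjusted p = 0.066; 0.028 with the replicate block), Rundc3b at -0.68 (0.12; 0.0088) and Vps37a at -0.43 (0.094; 0.023).

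Further members that fell were Rbms1 by 0.75 (SE 0.12, adjusted p = 0.00060), Mbnl2 fell by 0.62 (adjusted p = 0.0097; lost in 2 of 6, up to 0.064) and Pkp4 fell by 0.57 (adjusted p = 0.013; lost in 3 of 6, up to 0.11). Pld1 fell by 0.98 (adjusted p = 0.045; lost in 4 of 6, up to 0.29), Dph5 fell by 0.63 (adjusted p = 0.022; lost in 4 of 6, up to 0.12), Zbtb11 fell by 0.42 (adjusted p = 0.045; lost in 6 of 6, up to 0.18) and Ide fell by 0.41 (adjusted p = 0.039; lost in 6 of 6, up to 0.23). Members with large rises under ICN1 and R1984A were not among the called: Lgmn was at -0.12 (95% interval -0.46 to 0.22), Dusp1 at -0.09 (-0.45 to 0.27), Odf3l1 at -0.22 (-0.53 to 0.09), Irf9 at -0.07 (-0.45 to 0.30) and Zfp605 at -0.09 (-0.46 to 0.28). Their arrays with DNMAML overlapped those with the vector, and Enc1 and Srgn lay above it at 0.52 each without a call.

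GSI in cells with DNMAML changed 1 member, Hey1, which was the only one of 19938 genes called (0.00502%). Hey1 read 9.22, 9.34 and 9.09 in DNMAML-DMSO and 8.68, 8.43 and 8.37 in DNMAML-GSI, without overlap, and fell by 0.72 (SE 0.11, adjusted p = 0.014). The call was lost in 4 of 6 fits with 1 array left out (adjusted p up to 0.28), those without DNMAML-GSI replicate 2 or 3 or DNMAML-DMSO replicate 1 or 2. The median over the 70 members was -0.03, and 5 members had an unadjusted p under 0.05. Of all 19938 genes 507 did, and of the 8135 genes at the level 147 did. Nrarp, Dtx1, Il2ra, Notch1 and Notch3 were at -0.22 to 0.11.

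Small nucleolar RNAs guide the chemical modification of ribosomal and other RNAs, and in mammals most are cut from introns of other genes. The 12 members were Snora3, Snora23, Snora31, Snora41, Snora69, Snora75, Snord16a, Snord42a, Snord73b, Snord82, Snord87 and Snord95, named here after their values were seen. Under GSI they stood 0.55 to 1.13 higher with ICN1 and 0.504 to 1.05 higher with R1984A, as the rule required. MigR1-GSI was below MigR1-DMSO for all 12, with a median of -0.80, which shares arrays with the rule. In DMSO they did not move with the constructs as the protein-coding members did. ICN1-DMSO minus MigR1-DMSO had a median of 0.14, with 9 above 0 and 3 below, and -0.05 when ICN1-DMSO replicate 3 was left out. R1984A-DMSO minus MigR1-DMSO was below 0 for all 12, with a median of -0.38, and 0 were called. The 1 with an unadjusted p under 0.05 was Snord42a, which reached the level in MigR1-DMSO but not in R1984A-DMSO. Of 23 other snoRNAs at the level 20 were below 0 in this comparison, with a median of -0.32 and 1 called lower. ICN1-DMSO minus R1984A-DMSO was above 0 for all 12, with a median of 0.55 and 0 called. At an unadjusted p under 0.05 there were 4, Snord42a among them. The difference was above 0 for 21 of the 23 others, with a median of 0.33 and 1 called higher.

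Averaged over the 12, the arrays read 6.675, 6.84 and 7.05 in MigR1-DMSO and 5.88, 5.93 and 6.27 in MigR1-GSI. With R1984A they read 6.08, 6.54 and 6.71 in DMSO and 6.77, 6.75 and 6.82 in GSI. That R1984A-GSI lay above MigR1-GSI follows from the rule, which chose the members by these arrays. R1984A-DMSO overlapped MigR1-DMSO, and each of its arrays lay below the MigR1-DMSO array with the same replicate number. The replicate 3 array had the highest such mean in 8 of 8 groups, as it had the highest median. The spread within groups was wider than for other members, with a median pooled SD of 0.38 over the 12 against 0.21 over the 57 protein-coding members. Without the replicate 3 arrays the median over the 12 was 0.08 for ICN1-DMSO and -0.44 for R1984A-DMSO against MigR1-DMSO, with 8 of 12 above 0 and 10 of 12 below, and 0.49 for ICN1-DMSO minus R1984A-DMSO, with 12 of 12 above.

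DNMAML-DMSO was below MigR1-DMSO for all 12, with a median of -1.16, and 5 of the 11 that count for calls were called. That number was 7 without the replicate 3 arrays, 2 and 3 when MigR1-DMSO replicate 2 or 3 was left out, and 3 when DNMAML-DMSO replicate 1 or 2 was. Snora41 read 5.08, 5.24 and 5.56 in MigR1-DMSO and 3.23, 3.06 and 4.31 in DNMAML-DMSO, without overlap, and fell by 1.76 (SE 0.31, adjusted p = 0.0023). Its DNMAML-DMSO values in replicates 1 and 2 were below every array median. Snord42a, which passed the level through MigR1-DMSO and ICN1-DMSO, read 5.05, 5.43 and 4.72 against 3.83, 3.40 and 4.34. Snord16a read 7.24, 7.39 and 7.45 against 6.79, 6.21 and 6.63 and fell by 0.82 (SE 0.15, adjusted p = 0.0035). Snora69 fell by 1.46 (adjusted p = 0.010; lost in 2 of 6, up to 0.091), Snora3 fell by 1.11 (adjusted p = 0.041; lost in 5 of 6, up to 0.30) and Snord87 fell by 1.06 (adjusted p = 0.022; lost in 4 of 6, up to 0.15). With the replicate block 5 more were called, Snora23 (-1.31, adjusted p = 0.0014), Snora31 (-0.74, 0.0039), Snora75 (-1.22, 0.0065), Snord82 (-1.47, 0.0070) and Snord95 (-0.97, 0.0011). The fall was not particular to the members, since 14 of 23 other snoRNAs at the level were called lower with DNMAML, with a median of -0.97.

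**Figure D4:**
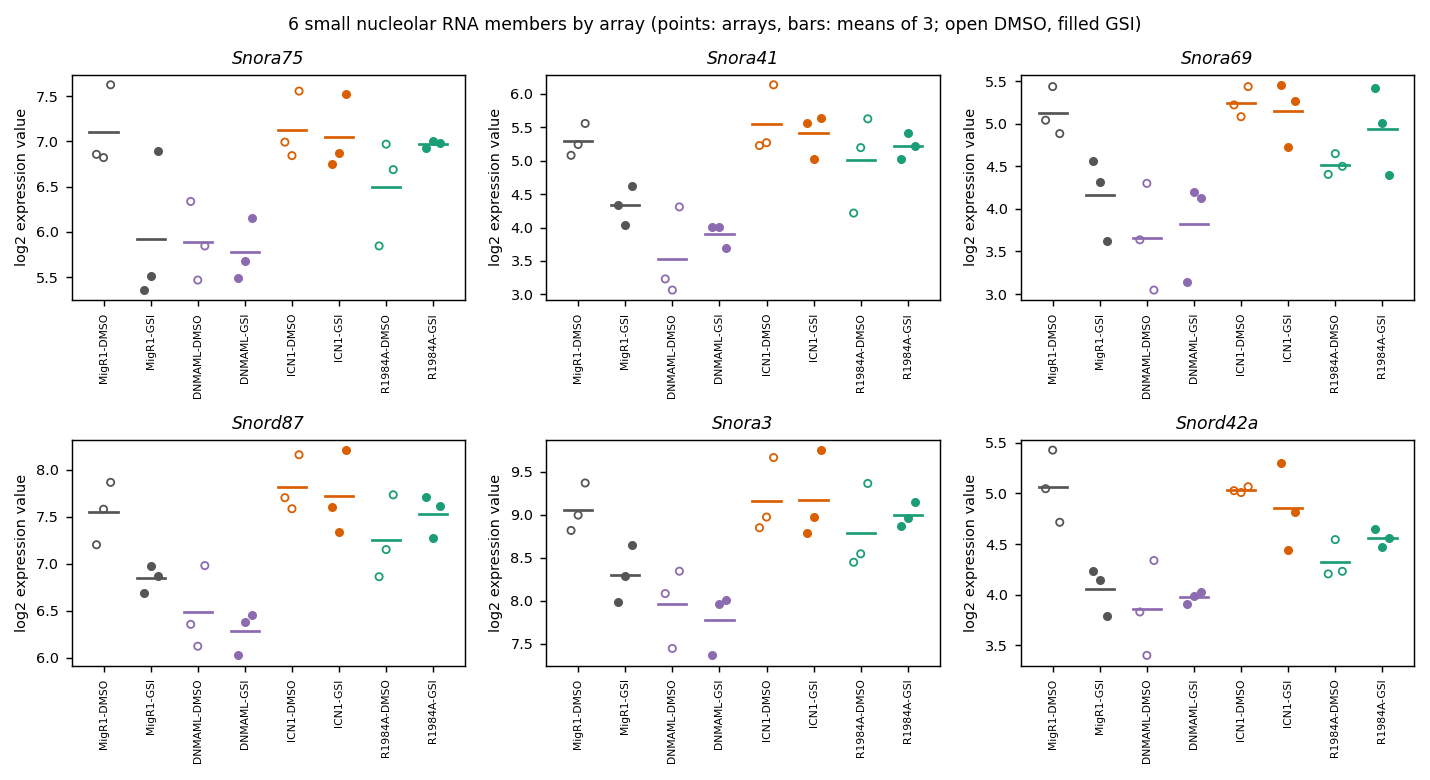
Log2 expression values (vertical axes) of 6 small nucleolar members in the 8 groups (horizontal axes), with a point per array, open for DMSO and filled for GSI, and a bar at each mean of 3. In the Snora41 panel the DNMAML-DMSO arrays read 3.23, 3.06 and 4.31, below the 5.08 to 5.56 of MigR1-DMSO, and the arrays of a group spread more widely than in the protein-coding panels.

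RefSeq places 10 of the 12 inside a gene that the arrays measured, 9 distinct genes in all, and 8 of these reached the level of 5, with means of 8.81 to 11.65. Snora75 and Snord82 lie in Ncl, the nucleolin gene, Snora3 in Rpl27a, Snord16a in Rpl4, Snord42a in Rpl23a, Snord73b in Rps3a1, Snora41 in the elongation factor gene Eef1b2, Snora31 in Tpt1 and Snora23 in the importin gene Ipo7. The mRNA probe sets of the 9 genes were within -0.0048 to 0.22 with ICN1 and -0.03 to 0.098 with R1984A under GSI, where the small RNAs stood at least 0.5 higher. For R1984A-DMSO minus MigR1-DMSO they were within -0.19 to 0.03. With DNMAML, Ipo7 fell by 0.41 (adjusted p = 0.041), and the other 8 were at -0.099 to 0.10, none called. Snord87 lies in Mcmdc2, whose mRNA had a mean of 2.70, and also in Snhg6, which was not analysed here. The genes around Snora69 (Rpl39) and Snord95 (Rack1) were not analysed here either. Mir677, the microRNA member, lies in Atp5b and was at 0.02, 0.05 and -0.61 in ICN1-DMSO, R1984A-DMSO and DNMAML-DMSO against MigR1-DMSO, with no call. The second probe set of Snora3 gave 0.89 and 0.70 under GSI, close to the 0.87 and 0.69 of the one used.

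**Figure D5:**
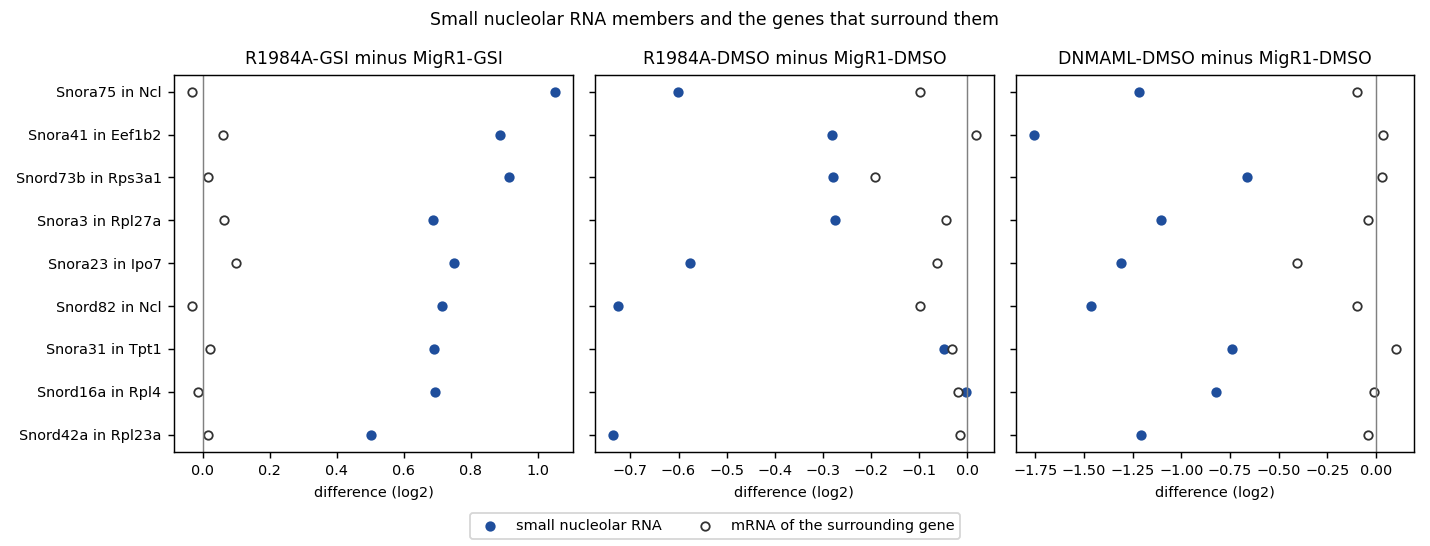
Differences of group means on the log2 scale (horizontal axes) for 9 small nucleolar members (filled) and the mRNA of the gene that surrounds each (open), one pair per line of the vertical axis, in panels for R1984A-GSI minus MigR1-GSI, R1984A-DMSO minus MigR1-DMSO and DNMAML-DMSO minus MigR1-DMSO. The open points lie between -0.19 and 0.10, except that of Ipo7 with DNMAML at -0.41.

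The pathway as a whole gives the setting for the members in it. Of 26 measured Notch targets, 6 of them members, ICN1-DMSO raised 7 and lowered 1, R1984A-DMSO raised 4 and lowered 2, and DNMAML-DMSO raised 2 and lowered 8 against MigR1-DMSO. Over all genes 0.421% were called higher and 0.306% lower with ICN1, 0.868% and 0.11% with R1984A, and 1.1% and 0.833% with DNMAML. Of 41 measured pathway components, 4 of them members (Notch1, Notch3, Dtx1 and Nrarp), ICN1 raised 3 and lowered 0, R1984A raised 3 and lowered 0, and DNMAML raised 0 and lowered 4. The non-member among these was the ligand gene Jag1, whose rises under GSI were 1.16 and 0.77, a gap of 0.39 that put it outside the rule. Notch1 counts as raised by ICN1 and by R1984A in both lists, and whether its probe set read the constructs was not tested. Of 5 targets linked to paired sites 1, Nrarp, was a member. Hes1, a transcriptional repressor, was outside because its rise under GSI was 0.37 with R1984A against 1.08 with ICN1. Ptcra, part of the pre-T-cell receptor, was outside with -0.19 against 0.66. Myc rose with both, by 0.61 with R1984A and 1.75 with ICN1, and the gap of 1.14 put it outside. Hes5 rose with neither, at -0.06 with R1984A and -0.05 with ICN1. None of the 26 Myc and ribosome biogenesis genes listed was a member, and neither was any of the 28 T-lineage genes.

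Each member's profile over the 8 groups was set beside the mean profile of the members. In R1984A-DMSO all 12 small nucleolar members were below MigR1-DMSO and 55 of 57 protein-coding members above it, so the profiles were not of 1 shape. The Pearson correlation of a member's 8 group means with the mean profile of the members ran from 0.536 for Phospho1, a phosphatase of mineralisation, and 0.599 for Enc1 to 0.994 for Nrarp. Over the small nucleolar members it ran from 0.735 for Snord42a to 0.941 for Snora31. These points share their arrays and the choice of the members, and the values are a description. Outside the 70, the profiles most like their mean over the 8 group means were those of Apbb1ip, an adaptor of integrin activation (r = 0.993), the kinase gene Mapk6 (0.983), Tex10 (0.982), Ergic1 (0.981) and Sos1, a Ras activator (0.979). Their rises under GSI were 0.32 to 0.64 with ICN1 and 0.29 to 0.54 with R1984A, and each had at least 1 rise below the limit of 0.5.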

How the data were processed

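The study measured total RNA of T6E cells on 24 arrays. Each probe set has 1 deposited log2 expression value for every array. The authors worked with oligo and limma, as the submitters' processing notes list them. For background correction, normalization and summarization the settings are not given in the sources examined. The log2 scale was read from the range of the deposited values, 1.28 to 13.47. The values were used without further scaling.

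Of 35556 probe sets, 21789 carried 1 gene symbol by the platform annotation, 1621 carried more than 1 and 12146 had no name there. RefSeq held 21698 of the first kind. For 999 genes with several probe sets the one with the highest mean was kept, which left 19938 genes. Differences were tested with limma 3.58.1 in R 4.3.3, fitting the 24 arrays together, each group with its own mean (16 residual and 6.56 prior degrees of freedom), a two-sided moderated test and Benjamini-Hochberg adjustment over the 19938 genes, called at an adjusted p under 0.05. The script was checked on simulated data. Values after a semicolon in parentheses come from the fit with the replicate block or, where fits are counted, from fits with 1 array left out.

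The members and gene lists were chosen with earlier results of these data known, and the role groups were assigned after the members were known. The genes named with values were the 15 members with the largest smaller rise, members on the Notch lists, up to 10 called members per direction and comparison, genes at the limits and the 5 most similar profiles; the other members, small RNAs and genes of the lists were named after their values were seen. Samples with the same replicate number in their titles shared deviations, with pair correlations of 0.114 to 0.521. The correlations were highest for replicate 3 in each comparison, at 0.413 to 0.521. The calls come from a fit without a replicate block, which leaves such a pairing out. Counts with the block are given for the comparisons among the DMSO groups, and they were larger. Whether the triplicates were separate cultures is not stated, and the p-values then cover only a spread that could be technical. Precision is limited by having 3 arrays a group. Whether the arrays of groups overlap is described for named genes only. The share of all genes without overlap was not counted, so that a lack of overlap adds nothing to a call.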

Additional observations from a re-analysis of the deposited data

How the results depend on the processing

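The number of members was 48 to 104 over other limits for the rise, the gap between constructs and the level, 70 after a second quantile normalization (67 shared) and 69 with the mean over probe sets, and 61 to 96 with 1 array left out. Counted over all 70 members, with the replicate block, members called higher with ICN1-DMSO went from 15 to 28, members called lower for ICN1-DMSO against R1984A-DMSO from 0 to 3, and members called higher with DNMAML-DMSO from 0 to 1; the block ended none of the 61 calls of single members. With array weights these counts were 28 and 2 for the first and the second, and R1984A-DMSO lowered 1. With only the 2 groups compared R1984A-DMSO raised 16, ICN1-DMSO exceeded R1984A-DMSO in 2, and GSI lowered 0 with DNMAML. Without the replicate 3 arrays, an alternative chosen after seeing the data, the counts were 6 higher with ICN1-DMSO, 17 higher with R1984A-DMSO, 1 lower for ICN1-DMSO against R1984A-DMSO and 0 lower for GSI with DNMAML. The cause was not tested. With 1 array left out, ICN1-DMSO raised 8 to 11 members, R1984A-DMSO raised 17 to 24, ICN1-DMSO exceeded R1984A-DMSO in 0 to 1, DNMAML-DMSO lowered 9 to 14 and GSI with DNMAML lowered 0 to 1.

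Of the 61 calls of single members, 61 held with array weights, with a trended robust prior and with dim genes removed. With every probe set 60 held, 50 after quantile normalization, 37 with only the 2 groups compared and 34 without the replicate 3 arrays. In fits with 1 array left out 248 of 366 held, and 0 reversed. The 61 include Wfdc5 and Srgn with R1984A and Snord42a with DNMAML. These 3 passed the level only through groups of the comparison or of DMSO, so that their calls are no independent result.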
